A study of Mus musculus with 40 samples.

Results

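The genes described here encode 10 enzymes of serine, one-carbon, asparagine and proline synthesis: Phgdh, Psat1, Psph, Shmt1, Shmt2, Mthfd2, Mthfd1l, Aldh1l2, Asns and Pycr1. They were taken by symbol from an RNA-seq count table of 43430 genes measured in mouse bone marrow-derived macrophages (BMDMs). Of the 10 members, 8 had enough reads to be tested, together with 11853 genes in all. Aldh1l2 and Pycr1 did not, and no test is given for them.

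Phgdh, Psat1 and Psph act in sequence to make serine from a glycolytic intermediate. Shmt1 in the cytosol and Shmt2 in mitochondria move a carbon unit from serine to tetrahydrofolate, and Mthfd2, Mthfd1l and Aldh1l2 oxidize or release that unit inside mitochondria, where the Mthfd2 step uses NAD+. Asns makes asparagine from aspartate and glutamine, Pycr1 carries out the last step of proline synthesis, and several of these genes are known targets of the transcription factor ATF4, the main effector of the integrated stress response.

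BMDMs came from 5 WT and 5 NDI1 mice of 8 to 14 weeks, of either sex, and BMDMs of each mouse were left untreated, given LPS, given piericidin A or given both, so that 8 groups of 5 libraries (40 in all) were measured. The labels give every mouse the strain C57/Bl6 and the VAV-Cre transgene, in WT and NDI1 mice alike. In NDI1 mice, Cre removes a stop cassette in front of yeast NADH dehydrogenase (NDI1) at the Rosa26 locus, so that NDI1 is expressed in blood cells of all kinds and not in macrophages alone. NDI1 oxidizes NADH without pumping protons and keeps working when piericidin A blocks complex I of the respiratory chain. Piericidin A was used at 500 nM and LPS, a bacterial cell wall component that activates macrophages, at 100 ng ml–1 for 4 h, with piericidin A added 30 min before LPS where both were given. For how long piericidin A alone was left on the cells is not given. The cells were differentiated with M-CSF, and their medium was supplemented with methyl-pyruvate and uridine in every group. The comparison asks which genes respond when complex I is blocked in WT BMDMs and whether they respond when NDI1 bypasses it. The level of the NDI1 transgene was not analysed here.

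The libraries held between 6950748 and 13552070 counts, with a median of 10361773.5. Levels are given as CPM, counts scaled to a common library size with TMM factors, which correct for a few abundant genes taking up more of a library. The 8 macrophage markers summed to between 19674 and 38691 CPM in every library, whereas T cell markers summed to at most 1.44 CPM, B cell markers to at most 13.3 CPM, mast cell and basophil markers to at most 14.5 CPM and erythroid markers to at most 0.253 CPM. WT mouse 4 and NDI1 mouse 4 stood farthest from the other mice of their genotype on the second principal component. Their 4 libraries had median sums of 759.2 and 430.6 CPM for neutrophil and precursor markers, against at most 74.1 CPM in the other 8 mice, and of 17.3 and 16.7 CPM for dendritic cell markers, against at most 6.34 CPM. Stromal markers, which reached 109.4 CPM in 1 library, had their highest median in WT mouse 4. By group, their median sum was 3.33 CPM (1.56 to 61.9) in WT with LPS and 8.33 CPM (1.66 to 109.4) in WT with both agents, against 4.81 and 4.33 CPM in NDI1. Of the 3 stromal genes tested, 0 were called in these comparisons by edgeR and 1 was called higher with piericidin A and LPS in WT with the block, where 3 passed an unadjusted p-value of 0.05, as 3 did without the block for NDI1 against WT with both agents. Neutrophil and precursor markers were also higher with piericidin A in WT, from a median sum of 27.98 CPM (14.3 to 260.5) untreated to 44.8 CPM (18.6 to 918.4), and from 46.0 CPM (30.8 to 599.9) with LPS to 103.6 CPM (59.9 to 1509) with both agents. In NDI1 the medians were 39.9 and 33.0 CPM without LPS and 59.6 and 76.7 CPM with LPS. Of the 4 of these genes tested, 0 were called in WT by edgeR (0 at an unadjusted p-value under 0.05), and with the block 2 were called higher without LPS and 3 with LPS. Mast cell and basophil markers had median sums of 2.37 CPM in untreated WT and 6.04 CPM in WT with piericidin A, against 2.84 and 2.98 CPM in NDI1. With LPS they were 1.28 CPM in WT and 2.82 CPM with both agents, against 1.17 and 0.937 CPM in NDI1, and the 1 gene of them tested was called higher with piericidin A in WT, with and without LPS, with the block and not without it. The part of these cells in the results was not tested, and counts of members that changed without both mice are given. In bulk RNA, fewer cells that express a gene and less RNA per cell cannot be told apart.

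The members lie on 6 chromosomes of the mm10 genome, each as 1 annotated protein-coding gene. Asns spans chr6:7675169-7693254, Mthfd2 chr6:83305691-83317606, Shmt2 chr10:127517123-127522444, Psat1 chr19:15904678-15947337 and Phgdh chr3:98313170-98339990. The promoter of Asns is shown because Asns rose strongly with piericidin A and carries the letters TGATGNAA, the C/EBP-ATF response element to which ATF4 binds. That of Mthfd2 is shown because Mthfd2 rose most and holds no such letters, and that of Pycr1 because it holds them although the gene was barely detected. Each sequence is the 250 bases before the gene start in the RefSeq annotation of GRCm38.p6, read 5′ to 3′ on the strand of the gene, which is the minus strand for all 3, with the matching letters in capitals.
Asns: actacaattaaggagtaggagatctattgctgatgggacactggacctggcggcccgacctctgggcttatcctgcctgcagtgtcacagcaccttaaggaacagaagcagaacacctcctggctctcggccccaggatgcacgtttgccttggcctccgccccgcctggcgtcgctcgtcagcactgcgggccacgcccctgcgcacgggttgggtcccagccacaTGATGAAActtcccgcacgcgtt
Mthfd2: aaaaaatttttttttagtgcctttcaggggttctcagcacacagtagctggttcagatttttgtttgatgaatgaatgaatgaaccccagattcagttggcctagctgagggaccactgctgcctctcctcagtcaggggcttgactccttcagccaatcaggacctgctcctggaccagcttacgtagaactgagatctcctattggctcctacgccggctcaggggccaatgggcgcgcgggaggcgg
Pycr1: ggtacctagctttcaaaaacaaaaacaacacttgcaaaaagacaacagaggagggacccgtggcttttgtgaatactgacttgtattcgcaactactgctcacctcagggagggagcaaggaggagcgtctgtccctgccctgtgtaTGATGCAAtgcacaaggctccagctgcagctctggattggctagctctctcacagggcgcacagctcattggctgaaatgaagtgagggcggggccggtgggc
The 3 sequences lie at chr6:7693210-7693459, chr6:83317605-83317854 and chr11:120643749-120643998. The letters begin 23 bases before the start of Asns and 103 bases before that of Pycr1. Windows of 300 bases, which also take in the first 50 bases of the gene, were at hand for 9 members, and none for Aldh1l2. TGATGNAA was searched on both strands and was found in windows of 2 of the 9 members, Asns and Pycr1, and in 3.97% of all 32851 promoter windows. A match describes the letters only and is not a measured binding site.

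Per kilobase of exon, the order of the members in untreated WT BMDMs depended on which annotation gave the exon length. With the lengths in the deposited table, Shmt2 was highest (8.24 ± 0.622 CPM per kb, SD, n = 5), followed by Mthfd2 (5.26 ± 1.98) and Asns (2.91 ± 1.17). With the exon lengths of GENCODE vM21, Asns came first (7.34 ± 2.94 CPM per kb) and Shmt2 next (6.11 ± 0.461), so that these neighbours could not be ordered beyond their spread. Under both, Psph and Shmt1 were the lowest of the 8 members tested. Aldh1l2 had between 0 and 8 counts per library and Pycr1 between 0 and 9. Neither was detectable beyond a few reads, and no test of a change is given for either. The plot of levels by group shows all 10 members.

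**Figure D1:**
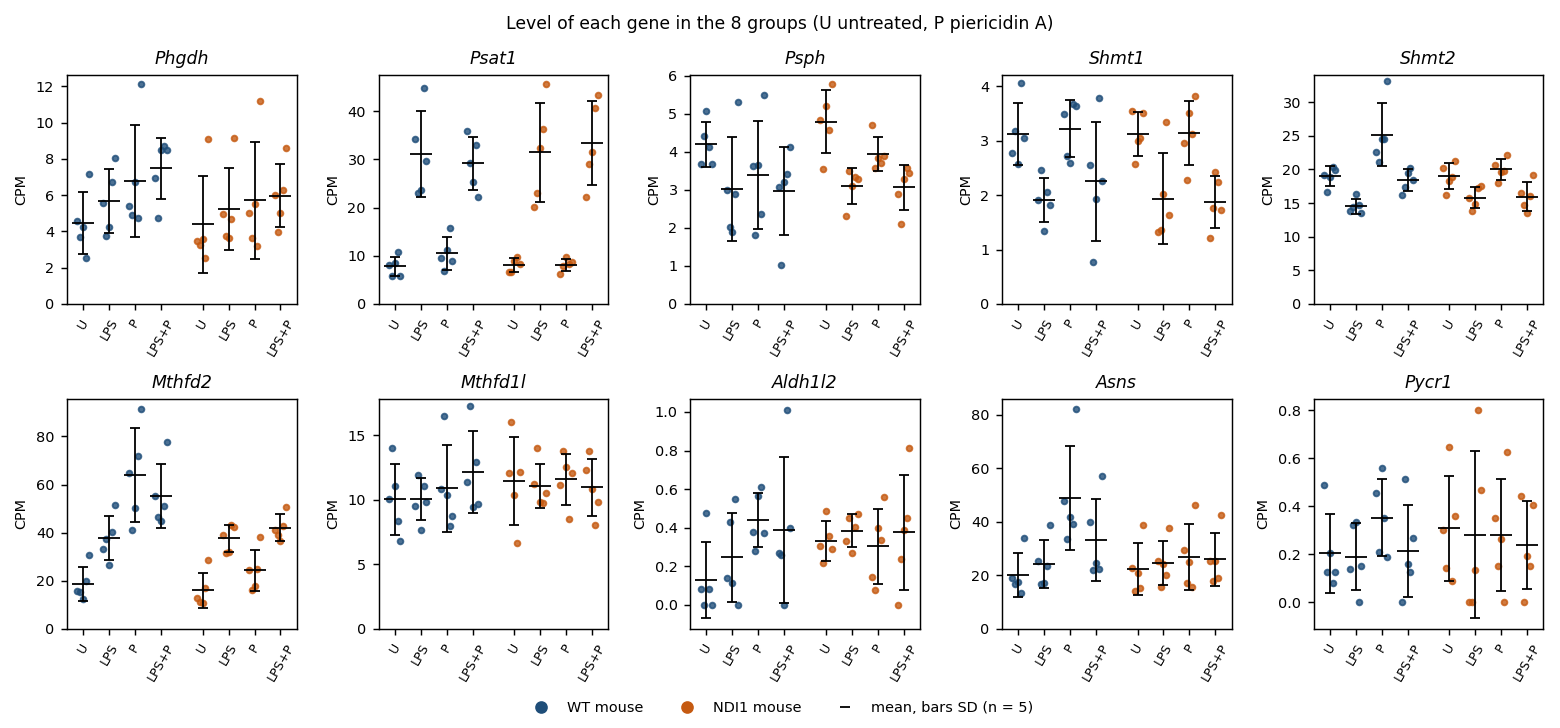
CPM (linear axis, 1 panel for each gene with its own scale) of the 10 members in the 8 groups, with WT mice in blue, NDI1 mice in orange, U for untreated and P for piericidin A, and with points drawn from mouse 1 to mouse 5 and black bars giving the mean ± SD of 5 mice. Mthfd2 and Asns were highest in WT with piericidin A (63.8 and 48.8 CPM on average), and Psat1 was high in all 4 groups with LPS.

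Piericidin A raised 3 of the 8 members tested in WT BMDMs and lowered none. Mthfd2 and Asns rose most, and Shmt2 rose by a smaller amount. In the same comparison, which is relative to the TMM scale, 7.79% of all tested genes were higher. These were 923 genes higher and 836 lower, and 503 and 1708 with total counts in place of TMM factors. In a fit that took the mouse as a block, Phgdh and Psat1 also rose, which gave 5 members against 17.2% of all genes. Without the 2 mice that stood apart, 3 members rose, and 4 with the block. The blocked call of Psat1 was lost without WT mouse 4 or WT mouse 5 (adjusted p = 0.0772 and 0.0769, edgeR), without both mice that stood apart (0.091) and with limma (0.0629), and that of Phgdh without WT mouse 5 (0.0538). Without the block, Shmt2 lost its call without WT mouse 5 (adjusted p = 0.0775, edgeR), and also with total counts in place of TMM factors (0.099), which moved the log2 fold change of the median gene by -0.13, and in a fit on the compared libraries alone (0.0511). Changes were tested by edgeR's quasi-likelihood test over all genes, with a Benjamini-Hochberg adjusted p-value under 0.05 as the call.

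When LPS was also given, piericidin A raised 1 member in WT, Shmt2, where 7.81% of all genes were higher (926 genes higher and 1057 lower, or 1006 and 705 with total counts). With the mouse as a block, 3 members rose, Shmt2, Mthfd2 and Asns, against 15.6% of all genes. The unblocked call of Shmt2 was lost without both mice that stood apart and without WT mouse 1, 3, 4 or 5 alone, with adjusted p-values between 0.0515 and 0.179. With the block, the same 3 members were called without both mice.

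In NDI1 BMDMs, 0 of the 8 members were called with piericidin A without LPS and 0 with LPS, against 0.0% of all genes in both cases (edgeR). At an unadjusted p-value under 0.05 there were 58 genes and 127 genes, with 1 member, Mthfd2, among the former and 0 among the latter. DESeq2 and limma also called 0 members. Over all genes, DESeq2 called 0 and 0 genes and limma 0 and 0. The block called 0 members as well, and there 284 genes without LPS and 334 with LPS passed an unadjusted p-value of 0.05. Among the former were 3 members (Mthfd2, Asns and Phgdh), and among the latter 0. Without LPS, Mthfd2, Asns, Phgdh and Shmt2 were higher with piericidin A in 5 of 5 NDI1 mice, and the other tested members in 1 to 3. That 0 members were called therefore does not show that none changed.

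Mthfd2, the mitochondrial methylenetetrahydrofolate dehydrogenase, had the largest response to piericidin A in WT among the members tested. Its levels in untreated WT BMDMs were 15.7, 15.4, 12.5, 19.7 and 30.5 CPM in mice 1 to 5. With piericidin A they were 64.9, 41.1, 50.1, 71.7 and 91.4 CPM. The groups did not overlap, and Mthfd2 rose in 5 of 5 mice. Its log2 fold change was 1.76 (SE 0.25, 3.39-fold, adjusted p = 7.12e-06, edgeR). In NDI1 BMDMs the untreated levels were 13.0, 11.2, 10.6, 16.8 and 28.5 CPM. With piericidin A they were 24.5, 16.1, 17.9, 24.7 and 38.0 CPM. These groups overlapped, although the level was higher in 5 of 5 NDI1 mice. The lowest treated value (16.1 CPM) lay below untreated values of 16.8 and 28.5 CPM, and mouse 5 was highest in both groups. The log2 fold change was 0.60 (SE 0.25, adjusted p = 1, edgeR), and with the block 0.62 (adjusted p = 0.332), so that the difference in NDI1 was not called. Without NDI1 mouse 5 the blocked fit did call it (adjusted p = 0.0277, edgeR).

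Mthfd2 was also higher with LPS. WT BMDMs with LPS had 33.4, 37.5, 26.7, 40.2 and 51.3 CPM in mice 1 to 5. NDI1 BMDMs with LPS had 39.1, 31.4, 31.7, 43.2 and 42.4 CPM. All LPS values except that of WT mouse 3 lay above every untreated value of their genotype. With LPS and piericidin A together, the WT levels were 55.4, 46.3, 45.0, 51.1 and 77.8 CPM. Those in NDI1 BMDMs were 41.2, 39.1, 36.3, 42.9 and 50.8 CPM. The WT groups with LPS overlapped, and piericidin A gave a log2 fold change of 0.55 (SE 0.25, adjusted p = 0.126, edgeR), or 0.54 with the block (adjusted p = 0.000994). In LPS-treated NDI1 BMDMs it was 0.16 (SE 0.25, adjusted p = 1, edgeR).

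Asns, asparagine synthetase, rose with piericidin A in each WT mouse from different starting levels. Untreated WT BMDMs had 19.0, 16.8, 17.3, 13.4 and 34.0 CPM in mice 1 to 5. With piericidin A they had 47.6, 33.4, 41.7, 39.0 and 82.2 CPM. The groups overlapped only because untreated mouse 5 lay above treated mouse 2, and each mouse rose by between 0.99 and 1.53 on the log2 CPM scale. The log2 fold change was 1.28 (SE 0.33, 2.42-fold, adjusted p = 0.00768, edgeR). NDI1 BMDMs had 22.6, 14.2, 20.7, 15.1 and 38.7 CPM untreated. With piericidin A they had 29.5, 17.2, 25.1, 15.7 and 46.4 CPM. Here the groups overlapped, and the log2 fold change was 0.26 (SE 0.33, adjusted p = 1, edgeR), with per-mouse differences of between 0.05 and 0.38.

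With LPS, Asns in WT BMDMs was at 25.2, 16.7, 17.0, 23.3 and 38.8 CPM. With LPS and piericidin A it was at 39.7, 21.8, 24.7, 22.1 and 57.2 CPM. It was higher with piericidin A in 4 of 5 mice and slightly lower in mouse 4. The log2 fold change was 0.46 (SE 0.34, adjusted p = 0.364, edgeR), or 0.42 with the block (adjusted p = 0.00159), a call that limma did not make (0.0803). NDI1 BMDMs with LPS had 25.5, 15.5, 24.2, 20.1 and 37.6 CPM. With both agents they had 25.3, 17.8, 25.3, 18.8 and 42.3 CPM, and these groups overlapped almost fully.

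Shmt2, the mitochondrial serine hydroxymethyltransferase, varied little between untreated mice. Untreated WT BMDMs had 19.2, 16.7, 18.8, 20.4 and 19.9 CPM in mice 1 to 5. With piericidin A they had 22.6, 21.0, 24.6, 24.5 and 33.1 CPM. Every treated value lay above every untreated one, and the log2 fold change was 0.40 (SE 0.10, 1.32-fold, adjusted p = 0.00756, edgeR). With LPS, WT BMDMs had 13.7, 14.4, 16.3, 14.7 and 13.5 CPM. With LPS and piericidin A they had 16.2, 17.4, 19.5, 20.2 and 18.5 CPM. Only the lowest of these fell below the highest LPS value, and the log2 fold change was 0.34 (SE 0.11, adjusted p = 0.0303, edgeR). In NDI1 BMDMs, Shmt2 lay between 16.2 and 21.3 CPM untreated and between 17.96 and 22.1 CPM with piericidin A. The log2 fold changes there were 0.08 (SE 0.11) without LPS and 0.01 (SE 0.11) with LPS. Exons of Shmt2 share 32 bases with the opposite-strand gene Ndufa4l2, and whether the counting used strand is not given.

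Of the serine synthesis enzymes, Phgdh, the first enzyme of the pathway, lay between 2.54 and 7.17 CPM in untreated WT BMDMs and between 4.73 and 12.1 CPM with piericidin A. The groups overlapped, although Phgdh was higher in 5 of 5 WT mice. Its log2 fold change was 0.60 (SE 0.34, adjusted p = 0.248, edgeR) and 0.58 with the block (adjusted p = 0.0124). In NDI1 it was 0.38 (SE 0.34, adjusted p = 1, edgeR), with Phgdh higher in 5 of 5 mice. Psat1, the aminotransferase of the pathway, lay between 5.77 and 10.7 CPM untreated and between 6.83 and 15.8 CPM with piericidin A. It was likewise higher in 5 of 5 WT mice, with a log2 fold change of 0.43 (SE 0.23, adjusted p = 0.213, edgeR) and 0.42 with the block (adjusted p = 0.0193). Psph, the phosphatase that releases serine, had a log2 fold change of -0.31 (SE 0.26) and was higher in 1 of 5 mice. Without WT mouse 5 the blocked fit called it lower (-0.63, adjusted p = 0.0259, edgeR). Psph shares 452 exonic bases with a noncoding transcript of Cct6a on the other strand.

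Shmt1, the cytosolic serine hydroxymethyltransferase, and Mthfd1l, the mitochondrial enzyme that releases formate, gave log2 fold changes with piericidin A in WT of 0.04 (SE 0.25) and 0.12 (SE 0.21). Neither was called, with or without the block. Shmt1 shares 184 exonic bases with Smcr8. Aldh1l2, which oxidizes formyl-tetrahydrofolate in mitochondria, had 4 to 8 counts in WT libraries with piericidin A and 0 to 7 in untreated ones. Of the untreated libraries, that of mouse 3 was at 0.474 CPM and the others at 0 to 0.0815 CPM. The exons of Aldh1l2 share 1056 bases with another gene. Pycr1 had 2 to 8 and 1 to 6 counts in the same groups. For both, no test of a difference is given at these few counts.

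**Figure D2:**
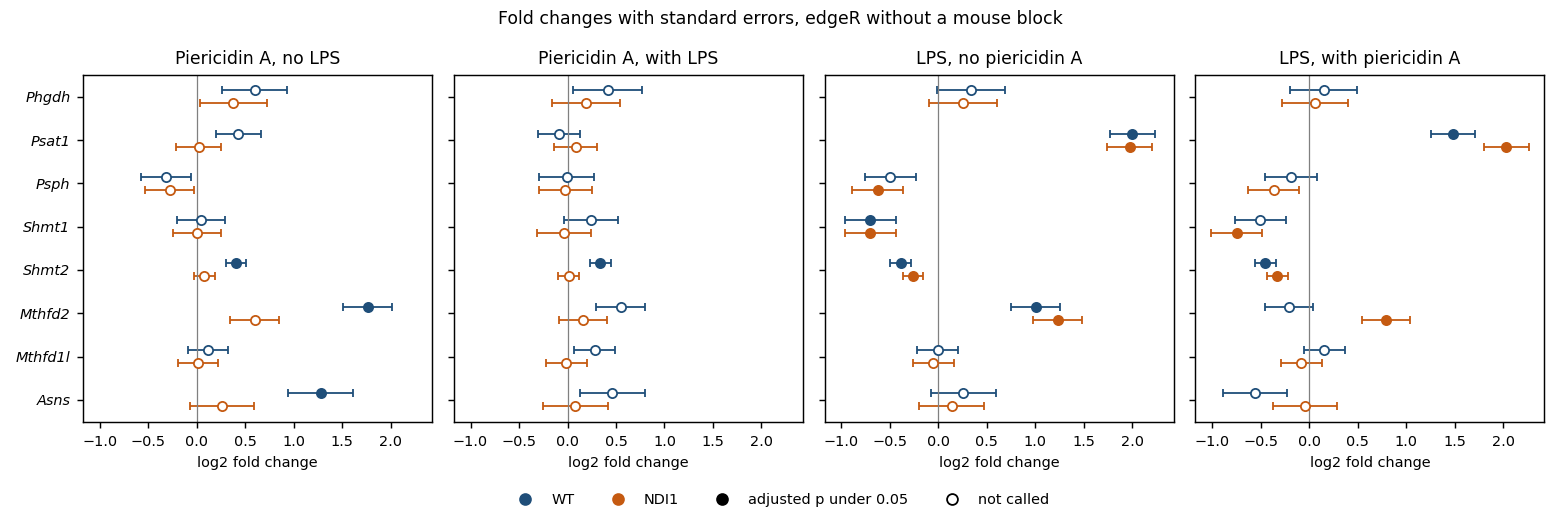
Log2 fold changes (x axis) of the 8 tested members (y axis) in WT (blue) and NDI1 (orange) BMDMs from edgeR without a block, with bars of 1 SE and filled points for an adjusted p-value under 0.05. Without LPS, piericidin A gave 1.76 for Mthfd2 and 1.28 for Asns in WT against 0.60 and 0.26 in NDI1, and LPS gave 2.00 and 1.97 for Psat1 in WT and NDI1.

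The response to piericidin A without LPS was smaller in NDI1 than in WT BMDMs for Mthfd2 and Asns when the mouse was a block. In that fit the difference (NDI1 minus WT) was called lower for 2 members, against 5.15% of all genes. For Mthfd2 it was -1.16 (SE 0.18, adjusted p = 3.39e-05, edgeR with the block), and for Asns -1.02 (SE 0.13, adjusted p = 4.24e-06, edgeR with the block). Without the block the values were -1.16 (SE 0.35, adjusted p = 0.101) and -1.01 (SE 0.46, adjusted p = 0.394), and 0 members were called in edgeR, against 1.1% of all genes lower (20 genes higher and 130 lower, or 48 and 98 with total counts). At an unadjusted p-value under 0.05, 3 members passed that unblocked test among 1331 genes, DESeq2 called 1 member, Mthfd2, among 294 genes, and limma with the mouse as a random effect called 2 among 1038 genes. The blocked calls held without each mouse in turn and without both mice that stood apart. For Shmt2 the difference with the block was -0.32 (SE 0.11, adjusted p = 0.0766, edgeR), which was not called.

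Within mice, the difference made by piericidin A was larger in every WT mouse than in every NDI1 mouse for 3 members, Mthfd2, Asns and Shmt2, where this held for 6.46% of all tested genes. Mthfd2 rose by 2.04, 1.40, 1.98, 1.85 and 1.58 on the log2 CPM scale in WT mice 1 to 5. In NDI1 mice 1 to 5 the values were 0.91, 0.52, 0.74, 0.56 and 0.41. For Asns the WT values were 1.32, 0.99, 1.26, 1.53 and 1.27. The NDI1 values for Asns were 0.38, 0.27, 0.28, 0.05 and 0.26. With LPS, 1 member, Shmt2, had every WT mouse (0.24 to 0.46) above every NDI1 mouse (-0.13 to 0.13), where 4.13% of all genes did.

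**Figure D3:**
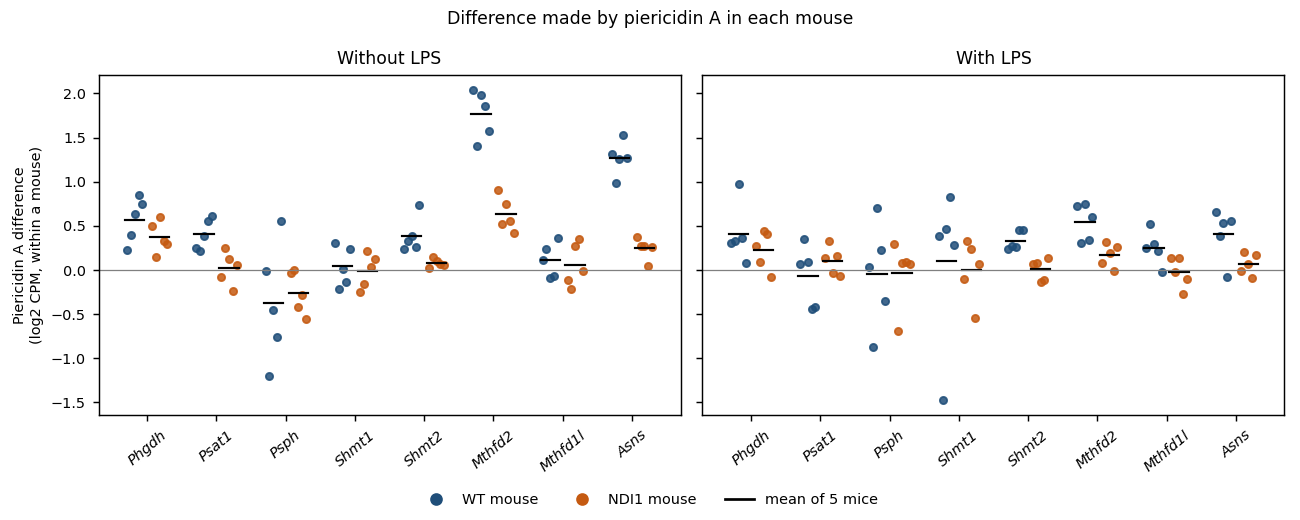
Difference in log2 CPM between libraries of the same mouse with and without piericidin A (y axis) for the 8 tested members (x axis), without LPS (left) and with LPS (right), with 1 point for each mouse and a black line for the mean of 5 mice. Without LPS, WT mice lay between 1.40 and 2.04 for Mthfd2 and NDI1 mice between 0.41 and 0.91, and with LPS the genotypes lay closer together.

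With LPS, the piericidin A response differed between genotypes for 0 members in edgeR, where 0.818% of all genes were lower, and for 0 with the block, where 4.81% were lower. At an unadjusted p-value under 0.05 there were 1 member among 1656 genes without the block, Shmt2, and 3 members among 3014 genes with it, and DESeq2 and limma called 0. The differences with the block were -0.37 for Mthfd2 (SE 0.17, adjusted p = 0.171, edgeR), -0.36 for Asns (SE 0.14, adjusted p = 0.105, edgeR) and -0.32 for Shmt2 (SE 0.13, adjusted p = 0.104, edgeR). Without WT mouse 4 the blocked fit called Asns (adjusted p = 0.0375, edgeR).

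Compared directly, members were called different between NDI1 and WT BMDMs where piericidin A was given without LPS, and in none of the other 3 treatments. Untreated and with LPS, edgeR called 0 members and 0.0% of all genes in both comparisons, with 39 and 141 genes and 0 members at an unadjusted p-value under 0.05, and DESeq2 and limma called 0 members. The log2 differences (NDI1 minus WT) of untreated BMDMs lay between -0.23 for Mthfd2 and 0.19 for Mthfd1l, with standard errors of up to 0.34. With piericidin A, 2 members were lower in NDI1, against 4.31% of all genes (413 genes higher and 511 lower, or 1010 and 380 with total counts, where 1 member was called lower). Mthfd2 was lower by a log2 difference of -1.39 (SE 0.25, adjusted p = 0.000245, edgeR), and no NDI1 value reached the lowest WT value of 41.1 CPM. Shmt2 was at -0.33 (SE 0.10, adjusted p = 0.0448, edgeR), a call that was lost without any of 7 mice in turn, with an adjusted p-value of up to 0.275 without WT mouse 5, and without both mice that stood apart (0.176). Asns was at -0.86 (SE 0.33, adjusted p = 0.101, edgeR), and limma with the mouse as a random effect called it lower as well (-0.89, adjusted p = 0.00566), which gave 3 members. With both agents, 0 members were called in edgeR, with 0 at an unadjusted p-value under 0.05 and 0 in DESeq2 and limma, against 6.13% of all genes lower.

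LPS changed the size of the piericidin A response in WT for Mthfd2, which was called lower against 2.16% of all genes (307 genes higher and 256 lower, or 557 and 141 with total counts, where 0 members were called). The difference (with LPS minus without) was -1.22 (SE 0.35, adjusted p = 0.0363, edgeR). This call was lost without WT mouse 1, 2, 3 or 4, with adjusted p-values between 0.0651 and 0.209, and without both mice that stood apart (0.224). With the block, Mthfd2 (-1.24, SE 0.17, adjusted p = 6.61e-06, edgeR) and Asns (-0.85, SE 0.14, adjusted p = 5.27e-05, edgeR) were both called lower, against 9.48% of all genes, and both remained called without the mice that stood apart. In NDI1 the same differences were -0.44 (SE 0.35) for Mthfd2 and -0.18 (SE 0.47) for Asns, and 0 members were called by edgeR, DESeq2 or limma, with 0 at an unadjusted p-value under 0.05 in edgeR and 1 with the block.

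LPS alone moved members in both directions in both genotypes. In WT, 2 members rose (Psat1 and Mthfd2) and 2 fell (Shmt1 and Shmt2), against 31.5% of all genes higher and 31.0% lower. With the block, Asns also rose and Psph also fell, which gave 3 members higher against 36.4% and 3 lower against 35.6%. The blocked call of Asns was lost without WT mouse 1 (adjusted p = 0.0588, edgeR), without WT mouse 4 (0.183), without both mice that stood apart (0.159) and with limma (0.241). That of Psph was lost without WT mouse 2 (0.112), without WT mouse 3 (0.196) and without both mice that stood apart (0.0612). In NDI1, the same 2 rose, and Psph, Shmt1 and Shmt2 fell, against 31.5% higher and 31.2% lower. These shares are near those of the members. For the difference of the LPS response between genotypes, edgeR called 0 members and 0.0% of all genes, with and without the block. At an unadjusted p-value under 0.05 there were 63 genes and 0 members, and DESeq2 and limma called 0 members.

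Psat1 had the largest response to LPS. Untreated WT BMDMs had 7.99, 5.85, 8.53, 10.7 and 5.77 CPM in mice 1 to 5. With LPS they had 34.3, 23.0, 23.7, 44.9 and 29.7 CPM. NDI1 BMDMs had 6.64, 6.55, 8.93, 9.68 and 8.37 CPM untreated and 20.2, 23.1, 32.4, 36.3 and 45.6 CPM with LPS. The groups were far apart in both genotypes. The log2 fold changes were 2.00 in WT (SE 0.23, 4.00-fold, adjusted p = 1.64e-09, edgeR) and 1.97 in NDI1 (SE 0.23, 3.92-fold, adjusted p = 2.34e-09, edgeR). Phgdh, which precedes Psat1 in the pathway, had log2 fold changes of 0.33 (SE 0.35) and 0.25 (SE 0.35), and Psph, which follows it, had -0.49 (SE 0.27) in WT and -0.62 (SE 0.26, adjusted p = 0.039, edgeR) in NDI1. The call of Psph in NDI1 was lost without mouse 1, 3, 4 or 5 and without both mice that stood apart, with adjusted p-values between 0.0622 and 0.139.

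Mthfd2 rose with LPS by 1.01 in WT (SE 0.25, adjusted p = 0.000745, edgeR) and by 1.23 in NDI1 (SE 0.25, adjusted p = 7.31e-05, edgeR). Shmt1 fell by 0.70 in both genotypes (SE 0.26, adjusted p = 0.0207 and 0.0201, edgeR), from 2.57 to 4.05 CPM in untreated WT BMDMs to between 1.34 and 2.46 CPM. Its call in WT was lost without mouse 3, 4 or 5, with adjusted p-values of up to 0.0569, and in NDI1 without mouse 1, 2 or 5, with values of up to 0.116. Shmt2 fell by 0.39 in WT (SE 0.11, adjusted p = 0.00218, edgeR) and by 0.26 in NDI1 (SE 0.11, adjusted p = 0.0328, edgeR). The NDI1 call of Shmt2 was lost without mouse 1, 3 or 5, with values of up to 0.109, and without both mice that stood apart (0.0702). Changes with LPS are relative to the TMM scale. With total counts in place of TMM factors, the log2 fold change of the median gene moved by -0.78 in WT and by -0.77 in NDI1, and genes called went from 3738 higher and 3673 lower to 1732 and 7864 in WT, and from 3731 and 3703 to 1734 and 7840 in NDI1. On that scale 1 member, Psat1, was higher and 4 were lower in each genotype, with Psph (-1.28 in WT, adjusted p = 6.06e-05, edgeR) and Mthfd1l (-0.79 in WT, adjusted p = 0.0016, edgeR) beside Shmt1 and Shmt2. Mthfd2 was not called in either genotype there (log2 fold changes of 0.22 and 0.45).

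In BMDMs that already had piericidin A, LPS raised Psat1 and lowered Shmt2 in WT, against 25.8% of all genes higher and 26.2% lower. With the block, Shmt2, Shmt1 and Asns fell, 3 members against 32.0% lower. The blocked call of Shmt1 was lost without WT mouse 1, 2, 3 or 5, with adjusted p-values between 0.0642 and 0.146 (edgeR). Asns was at -0.56 (SE 0.33, adjusted p = 0.159, edgeR) and at -0.58 with the block (adjusted p = 2.93e-06). Mthfd2 was at -0.21 (SE 0.25) in WT. With total counts in place of TMM factors, which moved the median gene by -0.59 in WT and by -0.75 in NDI1, genes called went from 3054 higher and 3102 lower to 1710 and 7285 in WT, and from 3624 and 3641 to 1714 and 7816 in NDI1. On that scale Psat1 was higher and 5 members were lower in WT, where Psph, Shmt1 and Shmt2 were joined by Mthfd2 (-0.79, adjusted p = 0.00398, edgeR) and Asns (-1.14, adjusted p = 0.00287, edgeR). In NDI1, Psat1 and Mthfd2 rose and Shmt1 and Shmt2 fell, against 30.6% higher and 30.7% lower. There Mthfd2 was at 0.79 (SE 0.25, adjusted p = 0.00618, edgeR), but at 0.04 with total counts (adjusted p = 0.875). With total counts, Psph (-1.12, adjusted p = 0.000279, edgeR), Mthfd1l (-0.82, adjusted p = 0.00109, edgeR) and Asns (-0.80, adjusted p = 0.0298, edgeR) were also called lower in NDI1, which gave 5 members lower. The call of Shmt1 in NDI1 was lost without mouse 1 (0.058) or mouse 5 (0.0762), and that of Shmt2 without mouse 3 (0.0526). Psat1 was at 2.03 in NDI1 and 1.48 in WT. Whether the LPS response in the presence of piericidin A differed between genotypes was not tested.

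Mice differed from each other in the members whatever the treatment. WT mouse 5 and NDI1 mouse 5 were above the mean of their groups in all 4 treatments for Phgdh, Mthfd2 and Asns. The macrophage markers of these mice also summed to more, with medians of 36375 and 33742 CPM, against 22811 to 28433 CPM in the other 8 mice, and their part in these deviations was not tested. Asns deviated by 0.83 on the log2 CPM scale in WT mouse 5 (from 0.75 to 0.90 over its 4 libraries) and by 0.81 in NDI1 mouse 5 (from 0.67 to 0.90). Phgdh deviated by 0.60 and 0.92 in the same mice, and Mthfd2 by 0.58 and 0.53. Psph (0.51 and 0.14) and Shmt2 (0.10 and 0.18) were also highest on average in these mice, but not above the group mean in all libraries of both. Psat1 did not share this pattern, at -0.23 in WT mouse 5, although NDI1 mouse 5 had the highest value of the NDI1 mice (0.30).

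**Figure D4:**
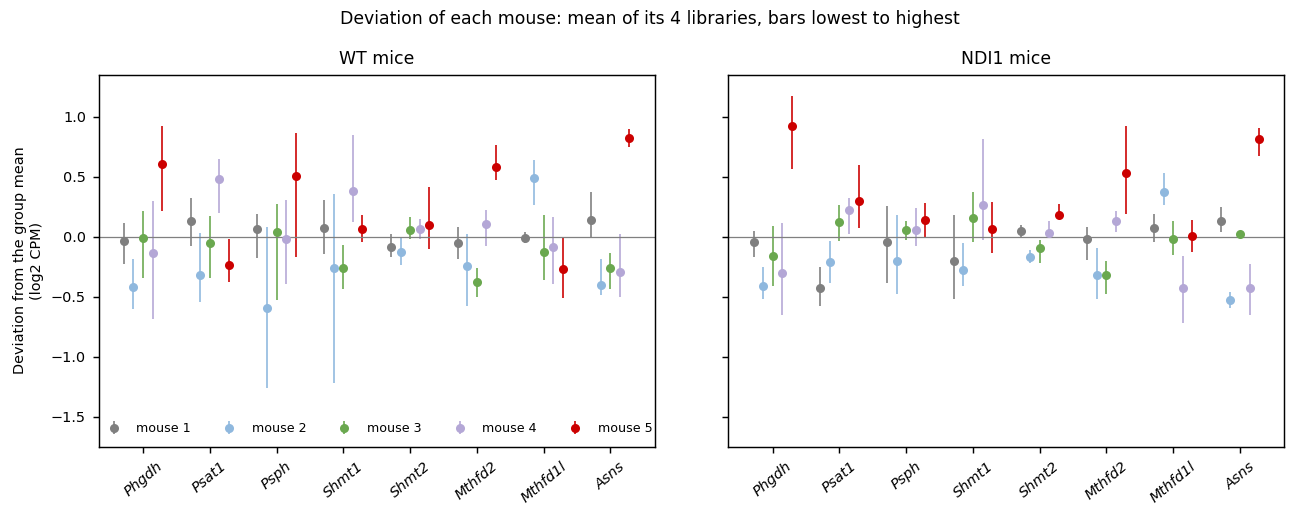
Deviation of each mouse from its group mean in log2 CPM (y axis) for the 8 tested members (x axis), WT on the left and NDI1 on the right, where points are the mean over the 4 libraries of a mouse and bars run from the lowest to the highest. Mouse 5 of either genotype lies highest for Phgdh, Mthfd2 and Asns, at 0.83 and 0.81 for Asns, and by less for Psph and Shmt2.

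Genes around these pathways were described from lists, by how many of their tested genes passed the test. Among 12 listed genes of the integrated stress response, 9 were higher with piericidin A in WT, against 7.79% of all genes. Of the 12, 0 were lower, against 7.05%, and their median log2 fold change was 1.32, against -0.00045 for all genes. The 4 with the largest changes were Chac1, a glutathione-degrading enzyme (3.47, SE 0.80, adjusted p = 0.00271, edgeR), Trib3, a pseudokinase (1.60, SE 0.42, adjusted p = 0.00886, edgeR), the transcription factor Atf3 (1.50, SE 0.27, adjusted p = 0.000168, edgeR) and Ppp1r15a, a subunit of a phosphatase of eIF2α (1.38, SE 0.21, adjusted p = 1.4e-05, edgeR). Atf4, named after its value was seen, was at 151 ± 50.4 CPM untreated and 381 ± 138 CPM with piericidin A (SD, n = 5), with a log2 fold change of 1.34 (SE 0.26, adjusted p = 0.000369, edgeR). In NDI1, 0 of the 12 were called by edgeR, with or without the block (0 at an unadjusted p-value under 0.05 without the block and 1 with it), and their median was 0.16. With LPS, 3 of the 12 were higher with piericidin A in WT, against 7.81% of all genes, with a median of 0.39: Ddit4, an inhibitor of mTORC1 (2.43, SE 0.46), Ppp1r15a (0.76, SE 0.21) and Sesn2, a stress-induced leucine sensor (0.71, SE 0.22). Of the 8 tested members the median was 0.42 without LPS and 0.31 with LPS in WT, and 0.05 in both cases in NDI1.

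The neighbouring pathways were described in the same way for piericidin A in WT, where 7.79% of all genes were higher and 7.05% lower without LPS, and 7.81% and 8.92% with LPS. No count of calls in WT and no summed level are given for the other folate and one-carbon enzymes, among which Mthfs, which recycles formyl-tetrahydrofolate (0.62, SE 0.15, adjusted p = 0.00513, edgeR), was higher without LPS. With LPS, Mtr, methionine synthase (0.68, SE 0.19), and Fpgs, which retains folate in cells (0.67, SE 0.24), were higher, the latter not with the block (adjusted p = 0.0582, edgeR). The genes named from this list were all higher, which does not give the direction of the list as a whole. Of 11 other proline, glutamate and asparagine enzymes, 3 were higher without LPS: Got1, the cytosolic enzyme that makes aspartate (0.75, SE 0.20, adjusted p = 0.0102, edgeR), Aldh18a1, the first enzyme of proline synthesis (0.60, SE 0.19, adjusted p = 0.0243, edgeR), and Oat (0.40, SE 0.12, adjusted p = 0.0216, edgeR). Glul, glutamine synthetase, was lower (-0.58, SE 0.18, adjusted p = 0.025, edgeR). With LPS, 6 of these 11 passed an unadjusted p-value of 0.05 in either direction (edgeR), and 7 with the block. Of all 11853 genes, 3682 and 5269 did. Without LPS it was 5 of the 11 in both fits. The calls of this list with LPS are not given here.

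Of 6 other serine and cysteine pathway genes tested, 0 were called without LPS in edgeR (1 at an unadjusted p-value under 0.05) and 1 with the block. With LPS, Sfxn1, a mitochondrial serine carrier (0.46, SE 0.14), and Sptlc2 (0.33, SE 0.08) were higher and Sptlc1 was lower (-0.31, SE 0.08), the latter both subunits of the enzyme that uses serine for sphingolipids. Of the 6 enzymes of purine synthesis, which consumes one-carbon units, 1 was lower without LPS, Pfas (-0.57, SE 0.20, adjusted p = 0.0498, edgeR), with 4 lower when the mouse was a block, against 16.9% of all genes, and 0 were called with LPS (1 with the block, and 1 at an unadjusted p-value under 0.05). In NDI1, 0 genes of these metabolic lists were called with piericidin A by edgeR, and 0 passed an unadjusted p-value of 0.05, whereas with the block 1 of 17 folate enzymes without LPS and 1 of 11 proline, glutamate and asparagine enzymes with LPS did. Of 10 proliferation markers, Mki67 was higher without LPS (0.74, SE 0.25, adjusted p = 0.0386, edgeR), and Mki67 and Pcna with LPS, where the list summed to between 227 and 343 CPM in WT with LPS and between 314 and 753 CPM with both agents. The part of proliferating cells in the changes of the members was not tested.

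**Figure D5:**
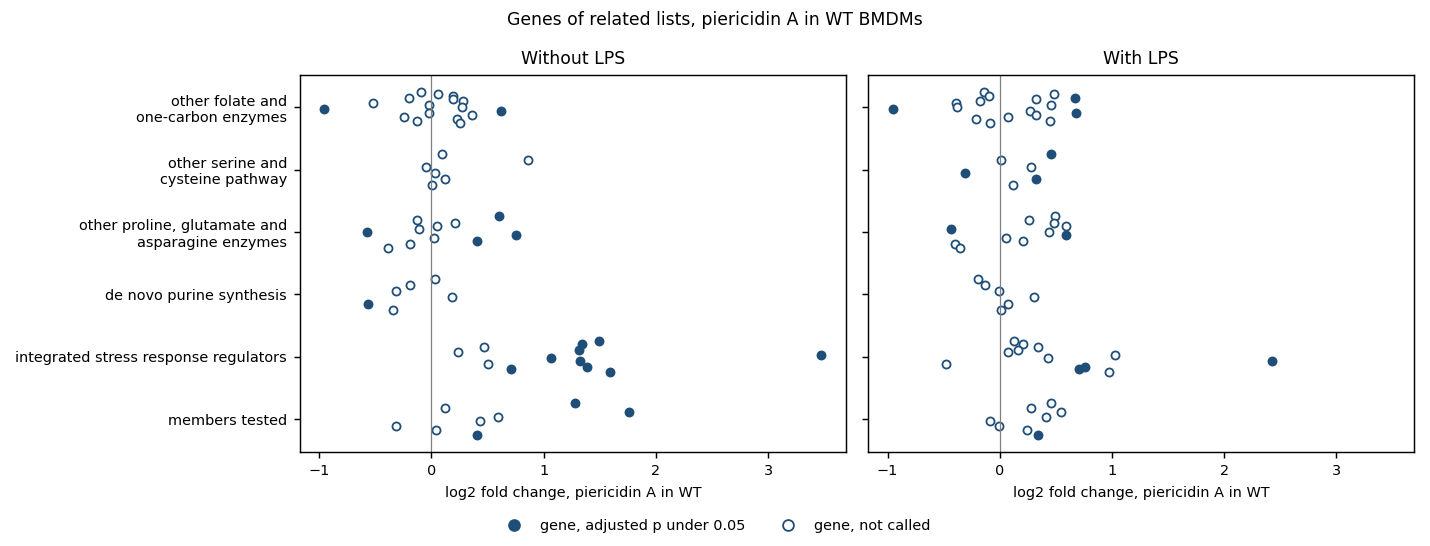
Log2 fold changes with piericidin A in WT BMDMs (x axis) of the tested genes of 5 related lists and of the 8 tested members (rows), without LPS (left) and with LPS (right), where filled points have an adjusted p-value under 0.05 in edgeR. In the row of the integrated stress response, 9 of 12 genes are filled without LPS and 3 with LPS.

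The members did not share a single pattern over the 8 group means. The mean of their standardized profiles was highest in WT with piericidin A (0.73) and lowest in untreated WT (-0.47), and the correlation of single members with it ran from -0.31 for Psph to 0.92 for Asns. The 5 other genes most like this mean profile were Naxe (Pearson r = 0.98 over the 8 group means), Alox5ap (0.98), Gpx1 (0.98), Use1 (0.97) and Eif3f (0.97), with group means that varied by an SD of between 0.07 and 0.19 in log2 CPM. Groups share the same mice, so these values describe the pattern only.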

How the data were processed

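RNA from BMDMs was sequenced as polyA-selected libraries. Per the labels and the submitters' processing notes, the authors used bcl2fastq, Trimmomatic, STAR on mm10 and HTSeq, and deposited raw read counts per gene in exons. Which annotation release was counted, and whether strand was used, is not given in the sources used here. Groups were taken from the genotype and treatment labels. Counts were analysed with edgeR 4.0.16 in R 4.3.3: TMM factors, a filter on low counts that left 11853 genes, 8 group means and quasi-likelihood tests of 17 comparisons, with Benjamini-Hochberg adjustment over all tested genes and a threshold of 0.05. The study names DESeq2 for pairwise tests in its methods and in its reporting summary, which also names edgeR for the RNA-seq data. It says nothing of a block. Log2 CPM values used a prior count of 2, and standard errors were derived from the test statistic. P-values without the block rest on the spread between mice of a group. Those with the block rest on the spread that is left once the level of each mouse is taken out.

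The members and lists were chosen with earlier results of these data known. Named genes were the 10 members, at most 4 called genes of each list in the piericidin A comparisons in WT, with the largest changes, and the 5 genes most like the members' mean profile. Mouse numbers in the labels tie the 4 libraries of a mouse together. Deviations of libraries of the same mouse from their group means correlated (mean r = 0.45 over 60 pairs, lowest 0.0995). Over 240 pairs of different mice the mean was -0.11. Deviations from a group's own mean cancel within the group, so this negative value follows from the first and is no separate check. Alternatives were the mouse as a block, DESeq2 1.42.0, limma 3.58.1 with the mouse as a random effect, other scalings and filters, and leaving out mice. Leaving out the 2 mice that stood apart, combining the block with left-out mice, and total-count scaling were chosen after seeing the data. The code was tested on simulated data. Some genes of the related lists are not reported here.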

Additional observations from a re-analysis of the deposited data

Results flagged for a closer look

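Within groups of 5 mice, the lowest and highest CPM of each member were compared with the others of the group by Dixon's criterion. Of 80 groups examined, 7 held a value that stood apart, where chance gives about 1 in 20. Phgdh in mouse 5 accounted for 4 of them. It was at 9.09 CPM in untreated NDI1 BMDMs (the other mice at 2.51 to 3.57), at 9.14 CPM with LPS (3.65 to 4.94) and at 11.2 CPM with piericidin A (3.21 to 5.50), and in WT with piericidin A mouse 5 was at 12.1 CPM (4.73 to 6.74). Asns in untreated WT mouse 5 was at 34.0 CPM, with the others between 13.4 and 19.0 CPM. Psph in NDI1 mouse 1 with piericidin A was at 4.71 CPM (3.58 to 3.90), and Aldh1l2 in untreated WT mouse 3 was at 0.474 CPM (0 to 0.0815), which rests on a few reads.

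For Mthfd2 and Asns, effects differed between groups in a test of the difference itself. The piericidin A effect without LPS was lower in NDI1 than in WT by a log2 difference of -1.16 for Mthfd2 and of -1.02 for Asns, both in edgeR with the mouse as a block. In WT it was lower with LPS than without by -1.22 for Mthfd2 without the block, and by -0.85 for Asns with it.

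The deposited table also holds a column of reads assigned to no library, with 29104648 counts, which no comparison used. The 10 members summed to 28039 counts there, or 963.4 CPM of that column.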

How the results depend on the processing

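Across 30 other settings no member changed direction after being called. The mouse as a block gave 5 members for piericidin A in WT (3 without), 3 with LPS (1 without), 4 for LPS on top of piericidin A in WT (2 without), 2 for the genotype difference in the piericidin A effect (0 without) and 2 for its dependence on LPS in WT (1 without). It moved no other count by more than 1.5 times. The numbers with limma and the mouse as a random effect were 2 for piericidin A with LPS in WT, 4 for LPS on piericidin A, 2 for the genotype difference, 2 for the dependence on LPS and 3 for NDI1 against WT with piericidin A (2 otherwise), and DESeq2 called 1 for the genotype difference. With no filter on low counts, 0 members were called for piericidin A with LPS in WT, 3 for LPS in NDI1 (5 otherwise) and 1 for NDI1 against WT with piericidin A (2 otherwise). With at least 10 counts in every library, 3 were called for LPS in NDI1. Fits on the compared libraries alone gave 0 for piericidin A with LPS in WT, 1 for NDI1 against WT with piericidin A and 0 for the dependence on LPS. RLE factors gave 1 for NDI1 against WT with piericidin A. Total counts gave 1 there, 6 for LPS on piericidin A in WT and 0 for the dependence on LPS.

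Leaving out the 2 mice that stood apart gave 0 for piericidin A with LPS in WT (3 with the block), 3 for LPS in NDI1, 1 for NDI1 against WT with piericidin A, 0 for the dependence on LPS (2 with the block), and with the block 4 for LPS on piericidin A in WT and 2 for the genotype difference. Leaving out 1 mouse at a time gave, over fits with and without the block, 2 to 5 members for piericidin A in WT, 0 to 3 members for piericidin A with LPS in WT, 0 to 1 members for piericidin A in NDI1, 3 to 6 members for LPS in WT, 2 to 5 members for LPS in NDI1, 2 to 4 members for LPS on piericidin A in WT, 1 to 3 members for NDI1 against WT with piericidin A, 0 to 2 members for the genotype difference without LPS, 0 to 1 members for the genotype difference with LPS and 0 to 3 members for the dependence on LPS in WT. The cause of these changes was not tested. Aldh1l2 and Pycr1 had too few reads for a test, and the low counts of Psph, Shmt1 and Phgdh limit what their comparisons can show.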

Other observations

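Single members had genes with closer profiles over the 8 group means. For Mthfd2 the closest was Rilpl2 (Pearson r = 0.988), and for Asns it was Hsd17b10 (r = 0.991). Both were named after their values were seen, and the groups share the same mice, so these values describe the pattern only.

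Mouse 5 of either genotype, which was high in Phgdh, Mthfd2 and Asns, was above its group means for 12 of the 12 listed integrated stress response genes in WT and for 9 of 12 in NDI1. The other mice were above for 1 to 8 genes in WT and 3 to 8 in NDI1, so that NDI1 mouse 5 hardly stood apart in this count. Sesn2 was lowest in NDI1 mouse 5 (-0.11) and Atf5 in WT mouse 5 (0.10). Among genes named after their values were seen, Atf4 deviated by 0.67 in WT mouse 5 and by 0.58 in NDI1 mouse 5 on the log2 CPM scale, and Trib3 by 0.97 and 1.10.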
